A study of Homo sapiens with 14 samples.

Results

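The comparison described here sets 5 drug-resistant sublines of the ovarian carcinoma cell line OVCAR-3 against themselves, once growing in the CDK2 inhibitor PHA-533533 and once without it. It uses 10 of the 14 arrays of the series, chosen by their titles. The 5 selected arrays hold sublines R1, R3, R5, R6 and R7 at passage 5 in 4 µM inhibitor. The 5 stable arrays hold the same sublines, from passage 10 onwards, in medium with 0 µM. The other 4 arrays are parental OVCAR-3 replicates in plain medium, used for reference only. Each subline was derived independently and gives 1 array per condition, so it stands for 1 selected population and not for a group of replicate cultures. All groups share the same RPMI medium with serum and antibiotics, and RNA came from subconfluent cultures. Inhibitor and passage changed together in every pair, so an effect of one cannot be told apart from an effect of the other. Values are log2 signal, 1 unit being a doubling, and a difference is always selected minus stable within a subline. The members are the genes whose difference had the same sign in all 5 pairs, which were 3521 of 18398 genes.

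CDK2 is a kinase that, bound to E-type cyclins, drives cells from G1 into DNA replication, and CDKN1A is one of its inhibitors. OVCAR-3 is known for amplified CCNE1, the cyclin E1 gene. Several of the gene groups described below belong to systems that answer growth conditions. Immediate early genes such as FOS and EGR1 are transcribed within minutes of growth factor and MAP kinase signalling. Lysosomal genes are held under common control by the MiT/TFE factors TFEB, TFE3 and MITF, which bind CACGTG-type sites, and whose activity is restrained through the Rag GTPases and mTORC1 at the lysosomal surface.

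The arrays carried the signal of epithelial ovarian cells. In selected arrays EPCAM averaged 11.94 ± 0.07, KRT8 13.23 ± 0.12 and PAX8 11.77 ± 0.21 (SD, n = 5), whereas the leukocyte gene PTPRC averaged 5.34 ± 0.09 and the endothelial gene VWF 6.94 ± 0.12. Olfactory receptor genes, silent in most tissues, were used to follow background signal. Averaged over 340 of them, the pair differences were -0.12, -0.13, -0.11, -0.03 and -0.38 for R1, R3, R5, R6 and R7, so no pair was higher in inhibitor. They averaged -0.16 ± 0.13 (SD, n = 5), and an exact two-sided sign-flip test gave p = 0.0625, which is as low as 5 pairs can go. A shift of background therefore moved with the comparison, and its part in the gene counts was not tested beyond the rescalings given beside them.

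In the paired limma fit with subline as a block, 906 of 18398 genes (4.92%) had a Benjamini-Hochberg adjusted p under 0.05, and these are said to have risen or fallen. Of them 665 (3.61%) rose in selected cells and 241 (1.31%) fell. By sign alone, 2168 genes (11.8%) were higher in all 5 sublines and 1353 (7.35%) were lower in all 5. Both conditions held for 887 genes (4.82%), 649 higher (3.53%) and 238 lower (1.29%), with median differences of 0.46 and -0.46. A difference of at least 1 was reached by 22 of these 649 genes and 13 of these 238, so most changes were smaller than a doubling. The up-to-down split depended on scale. Rises and falls numbered 426 and 363 after quantile normalization, 267 and 174 after median centring, and 1495 and 57 after centring on the olfactory receptor mean. The median gene differed by 0.003 as deposited, -0.01 and -0.03 under the first 2 scalings and 0.16 under the third. With subline left out of the model 397 genes passed. Leaving out R1, R3, R5, R6 or R7 left 546, 688, 188, 179 or 159 genes. With the olfactory receptor mean of each array added to the limma model 0 genes passed and 1309 had an unadjusted p under 0.05, against 3818 without it, so every call given here holds only for the model without that term. Of 105 genes named or listed that passed, 27 kept the call when any 1 subline was left out. Across the deposited scale and these 3 rescalings, 1363 genes stayed higher in all 5 sublines and 159 stayed lower, and 620 and 103 of those had passed the fit.

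**Figure D1:**
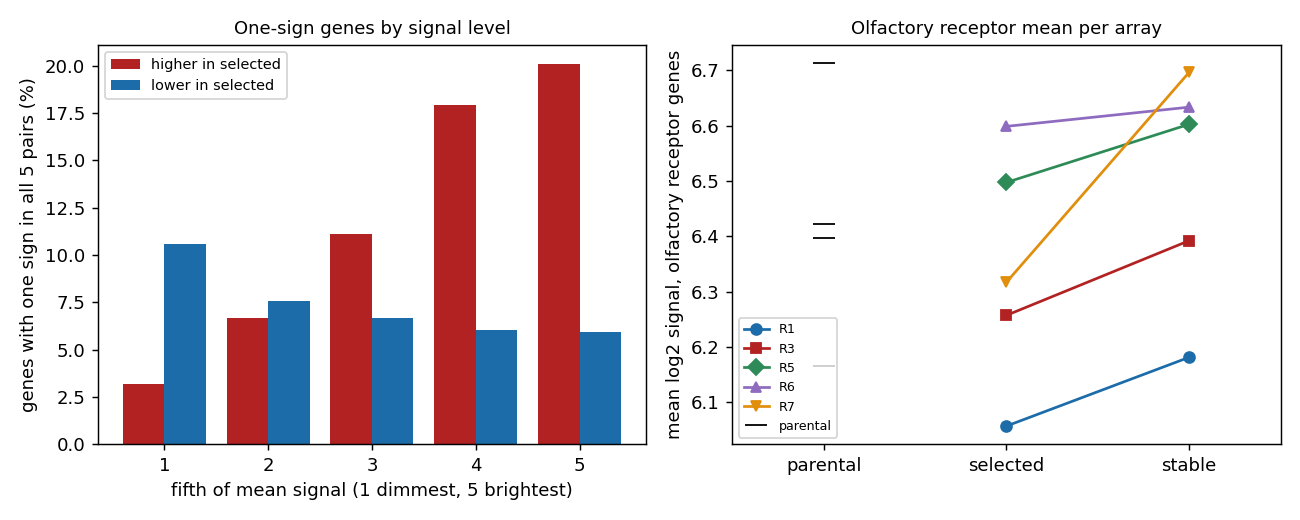
Left, share of genes with the same sign in all 5 pairs (%), in 5 equal classes of mean log2 signal from dimmest to brightest, for genes higher (red) and lower (blue) in selected cells; right, mean log2 signal of 340 olfactory receptor genes per array, with lines joining the arrays of a subline and dashes for the 4 parental arrays. Higher genes made up 3.18% of the dimmest and 20.1% of the brightest class, lower genes 10.6% and 5.92%, and each of the 5 lines in the right panel rises towards the stable array.

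Brightness moved with direction. The share of genes higher in all 5 sublines was 3.18% in the dimmest of 5 equal classes, then 6.69%, 11.1% and 17.9%, and 20.1% in the brightest, whereas the share lower fell from 10.6% to 5.92%. A list of bright genes would therefore hold more rises than the 11.8% average, and counts for lists are read below with that in view.

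The largest rises joined secreted enzymes, receptors and signalling genes. MMP1, an interstitial collagenase, lay at 9.11, 9.05, 9.48, 8.90 and 10.56 in the selected arrays of R1, R3, R5, R6 and R7 and at 8.03, 6.85, 7.0, 7.40 and 7.0 in their stable arrays. Every selected array lay above every stable one, as in 2.83% of all genes. In either direction 4.16% of genes had no overlap between conditions, 1.33% with the stable arrays above. MMP1 rose by 2.16 (SE 0.29, limma adjusted p = 0.0102), a 4.48-fold difference, from means of 7.26 ± 0.48 to 9.42 ± 0.67 (SD, n = 5), and the pair differences ran from 1.07 in R1 to 3.55 in R7. MMP10, a stromelysin, rose by 1.20 (SE 0.16, adjusted p = 0.00966), with pair differences of 0.65, 1.14, 0.99, 1.27 and 1.96 for R1, R3, R5, R6 and R7. MMP7, matrilysin, had a smaller rise of 0.44 (adjusted p = 0.0404), at levels of 5.79 to 6.42 in selected arrays that lie near the dim end of the scale, and its call was lost without R1, R5, R6 or R7 (adjusted p up to 0.11). Of the 26 measured metalloproteinases and TIMPs these 3 rose (11.5%, against 3.61% of all genes), none fell and the list median was -0.01. By sign, 3 members were higher in all 5 sublines (11.5%, near the 11.8% of all genes) and 1 was lower. MMP2, a gelatinase, was lower in all 5 pairs at -0.40 without passing (adjusted p = 0.0866). ADAMTS5, an aggrecan-cleaving protease outside that list, fell by 1.37 (SE 0.31, adjusted p = 0.0443) but unevenly, at -2.55 in R3 and -2.37 in R5 against -0.25 in R1, and lost its call without R3, R5, R6 or R7 (adjusted p up to 0.114).

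LGR5, a receptor for R-spondins that amplifies WNT signalling, read 9.50, 9.91, 9.14, 9.93 and 9.58 in selected arrays of R1, R3, R5, R6 and R7 and 8.65, 6.75, 7.67, 7.91 and 7.30 in stable arrays. The groups did not overlap. The parental arrays, at 7.93 to 8.92, lay below every selected array, and stable R1 lay within their range. LGR5 rose by 1.96 (SE 0.27, adjusted p = 0.0102), a call that slipped to 0.0579 without R7. It was the only member of the 39 WNT receptors and inhibitors to pass, and the list median was 0.01. PRSS12, a secreted serine protease, rose by 1.72 (SE 0.15, adjusted p = 0.00532), most in R1, at 2.29, and least in R6, at 1.04. EHF, an epithelial ETS factor, rose by 1.63 (SE 0.21, adjusted p = 0.00966), although its arrays overlapped because sublines differed in level, with stable arrays at 7.32 in R5 and 9.17 in R1. Without the block the EHF call was lost (adjusted p = 0.0626).

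SDCBP, the scaffold protein syntenin, rose by 1.36 (SE 0.14, adjusted p = 0.0061), with selected arrays at 9.97 to 10.81 above stable arrays at 8.71 to 9.83 and parental arrays at 8.96 to 9.44. MAMDC2, a secreted matrix protein, rose by 1.35 (SE 0.13, adjusted p = 0.00532), from stable values of 7.16 to 7.48 to selected values of 8.05 to 9.34. PIEZO2, a mechanosensitive ion channel, rose by 1.28 (SE 0.12, adjusted p = 0.00532) on its brightest row and by 0.54 (adjusted p = 0.00897) on the mean of its rows. The EGF-family ligand gene NRG4 rose by 1.08 (SE 0.14, adjusted p = 0.0089) and the putative magnesium transporter gene NIPAL2 by 1.14 (SE 0.13, adjusted p = 0.00882). SDCBP, MAMDC2, PIEZO2, NRG4 and NIPAL2 did not overlap between conditions, and each kept its call when any 1 subline was left out. In MAMDC2, PIEZO2 and NRG4 every pair difference was at least 0.73.

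**Figure D2:**
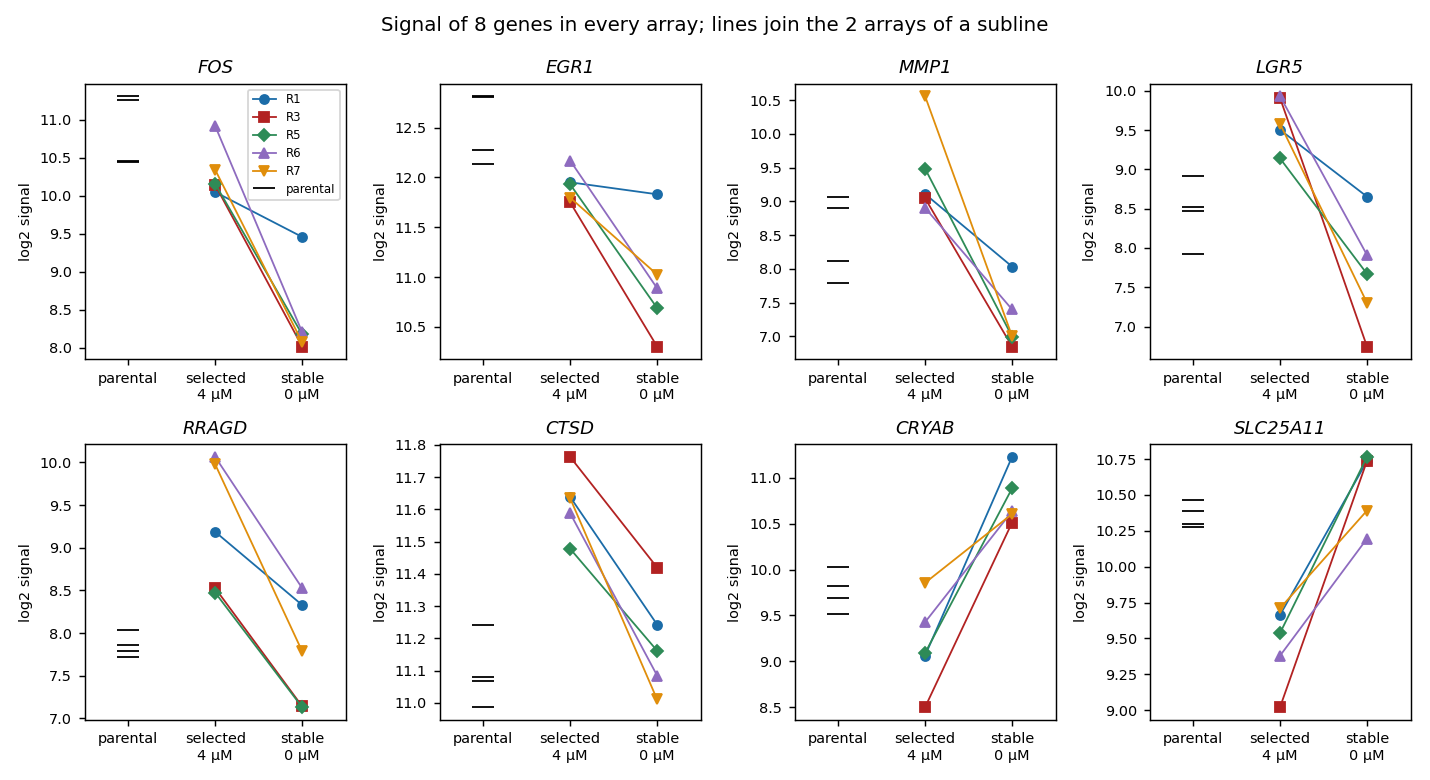
Log2 signal of 8 genes in every array: 4 parental arrays as dashes, and for each of the 5 sublines a line from its selected array (4 µM inhibitor) to its stable array (0 µM). Each panel has its own vertical scale; FOS, EGR1, MMP1, LGR5, RRAGD and CTSD are lower and CRYAB and SLC25A11 higher in every stable array than in its selected partner.

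Of 40 measured genes of immediate early and MAP kinase output, 7 rose in selected cells (17.5%, against 3.61% of all genes) and 0 fell. In all 5 sublines 6 were higher (15%, near the 11.8% of all genes) and 1 was lower. FOS, a subunit of the AP-1 factor, lay at 10.05, 10.14, 10.16, 10.92 and 10.34 in R1, R3, R5, R6 and R7 in inhibitor, and at 9.46, 8.01, 8.17, 8.20 and 8.07 in the same sublines without it. The stable arrays other than R1 sat close together, below their selected partners by 1.98 to 2.71, whereas R1 differed by 0.59. FOS rose by 1.94 (SE 0.25, adjusted p = 0.00913), or 3.83-fold, and without R7 its adjusted p was 0.052. Parental arrays ranged from 10.44 to 11.31, so for FOS the stable arrays, not the selected ones, lay furthest from the parental line.

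EGR1, a zinc finger factor of the same class, read 11.95, 11.75, 11.93, 12.17 and 11.80 in selected R1, R3, R5, R6 and R7. In stable arrays it read 11.83, 10.30, 10.69, 10.89 and 11.03. R1 barely differed, at 0.12, whereas the other 4 pairs differed by 0.77 to 1.45. EGR1 rose by 0.97 (SE 0.17, adjusted p = 0.0233), and the call was lost without R5, R6 or R7 (adjusted p up to 0.0784). The region just upstream of EGR1 is shown because it holds the CArG box, the serum response factor site, on which induction by growth factors is known to depend. It covers chr5:138465349-138465428 on the plus strand of GRCh38.p14 (RefSeq), bases -130 to -51 before the start, with both matches of 6 A or T between CC and GG in capitals.
EGR1: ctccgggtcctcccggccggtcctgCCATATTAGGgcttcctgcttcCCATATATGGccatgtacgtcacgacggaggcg

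CArG boxes were present within 250 bases upstream in 2 of 29 list members with a RefSeq promoter (6.90%) and in 1.61% of all 14227 measured genes with one. The other rises on the list were those of ZFP36, which destabilises AU-rich messages, by 0.63 (SE 0.09, adjusted p = 0.0103), of FOSB by 0.51 (SE 0.10, adjusted p = 0.0269) and of IER2 by 0.32 (SE 0.07, adjusted p = 0.0386), each higher in 5 of 5 pairs. Without the block ZFP36 did not pass (adjusted p = 0.117). JUN, the usual partner of FOS, rose by 0.61 (adjusted p = 0.0444) and the MAP kinase phosphatase DUSP1 by 0.60 (adjusted p = 0.0425), each in 4 of 5 pairs, with R3 at -0.03 and -0.09. The remaining 33 members did not pass, and the list median was 0.03. DUSP6, SPRY2 and ETV5, longer-lived readouts of ERK signalling, differed by -0.10, -0.14 and -0.20 (adjusted p = 0.781, 0.52 and 0.465), with R3 and R5 negative in each. Called members numbered 1 without R7 (ZFP36), 2 without R5 or R6, 4 without R1, 6 without R3 and 2 without the block.

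Genes of the lysosome were higher in inhibitor in many cases. Of 53 measured lysosomal enzymes and membrane proteins, 25 were higher in all 5 sublines (47.2%, against 11.8% of all genes) and 1 was lower. In the fit 12 rose (22.6%, against 3.61% of all genes) and 0 fell, and the list median was 0.26 against 0.003 for all genes. FUCA1, which removes fucose from glycoproteins, lay at 8.88, 8.78, 8.57, 8.78 and 9.06 in selected arrays of R1, R3, R5, R6 and R7 and at 8.05, 8.29, 8.04, 7.86 and 8.04 in stable ones. It rose by 0.76 (SE 0.09, adjusted p = 0.0089) with no overlap. GM2A, the activator protein for ganglioside breakdown, rose by 0.66 (SE 0.08, adjusted p = 0.0089), from stable values of 9.43 to 9.79 to selected values of 10.17 to 10.39. Both kept their calls when any 1 subline was left out.

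The cathepsin proteases CTSL, CTSD and CTSF rose by 0.65 (SE 0.10, adjusted p = 0.0136), 0.44 (SE 0.07, adjusted p = 0.0211) and 0.39 (SE 0.09, adjusted p = 0.0489). CTSD, the brightest of them, read 11.64, 11.76, 11.48, 11.59 and 11.63 in selected and 11.24, 11.42, 11.16, 11.08 and 11.01 in stable arrays, so that the lowest selected array lay just above the highest stable one. The sphingolipid hydrolases SMPD1 and ASAH1 rose by 0.64 and 0.41, the sugar-cleaving enzymes GLB1 and ARSB by 0.41 and 0.33, and the membrane protein LAMP2 by 0.40 (adjusted p from 0.0184 to 0.0346 for these 5). MCOLN1, the lysosomal calcium channel, rose by 0.36 (SE 0.08, adjusted p = 0.0444) with pair differences between 0.25 and 0.70. GPNMB, a glycoprotein of lysosomes and melanosomes, had the largest mean on the list at 1.33 (SE 0.31, adjusted p = 0.0444), yet its pair differences spread from 0.27 in R1 to 2.85 in R3. LAMP1 and HEXA, at 0.40 and 0.36, were higher in all 5 pairs without passing (adjusted p = 0.076 and 0.0861).

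The vacuolar ATPase, the proton pump that acidifies lysosomes, had 10 of 21 measured subunits and accessory proteins higher in all 5 sublines (47.6%) and 0 lower. Over all genes the shares were 11.8% and 7.35%. Of the 10 genes 5 rose (23.8% of the list, against 3.61% of all genes). These belong to the membrane sector or its accessory proteins: ATP6AP1 by 0.46 (SE 0.08, adjusted p = 0.022), ATP6V0A2 by 0.42, ATP6V0E2 by 0.37, ATP6V0B by 0.36 and ATP6V0E1 by 0.31 (adjusted p up to 0.041). ATP6AP1 was at 11.45 or more in every selected array and at 11.19 or less in every stable one. The median of the 21 genes was 0.24.

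Among 50 genes of autophagy and the MiT/TFE axis, 16 were higher in all 5 sublines (32%, against 11.8% of all genes) and 0 were lower. In the fit 9 rose (18%, against 3.61% of all genes). RRAGD, a Rag GTPase of nutrient sensing and a known MiT/TFE target, led them. It read 9.19, 8.53, 8.47, 10.06 and 9.98 in selected and 8.33, 7.14, 7.13, 8.53 and 7.79 in stable arrays of R1, R3, R5, R6 and R7. Levels overlapped between conditions because R3 and R5 sat below the others in both states, yet every subline was higher in inhibitor, by 0.86 in R1 to 2.19 in R7. RRAGD rose by 1.46 (SE 0.16, adjusted p = 0.00733) with the block and did not pass without it (adjusted p = 0.0685). The closely related Rag GTPase gene RRAGC rose by 0.60 (SE 0.10, adjusted p = 0.0214), and FNIP2, a partner of the RRAGC/D-activating protein folliculin, by 0.62 (SE 0.13, adjusted p = 0.0337). LAMTOR3, which anchors Rag GTPases to the lysosome, rose by 0.61, ATG4B and ATG4A, proteases that process ATG8 proteins, by 0.58 and 0.52, the kinase gene ULK2 by 0.52, the lipid scramblase gene ATG9A by 0.45 and the conjugation factor ATG5 by 0.34 (adjusted p from 0.022 to 0.0459). On the mean of its rows ATG4B did not pass (adjusted p = 0.0824). ATG4A and ATG5 lost their calls when any 1 subline was left out. The genes of the factors themselves did not pass: TFE3 differed by 0.27 (adjusted p = 0.147), MITF by 0.15 (adjusted p = 0.399) and TFEB by 0.12 (adjusted p = 0.447). RRAGA, at 0.04, and the autophagy receptor gene SQSTM1, at -0.01, were likewise not called (adjusted p = 0.792 and 0.985).

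**Figure D3:**
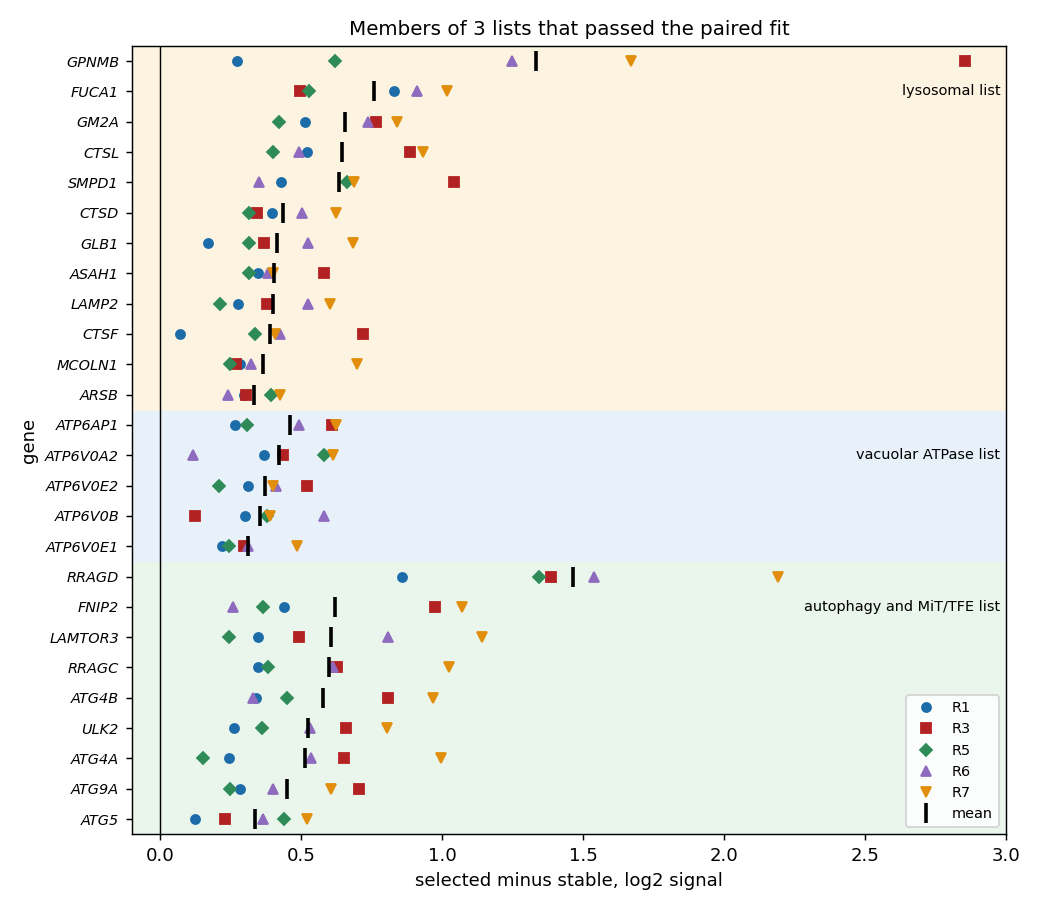
Selected minus stable difference (log2 signal) in each of the 5 sublines (symbols) and their mean (bar) for the 26 genes of the lysosomal (top), vacuolar ATPase (middle) and autophagy and MiT/TFE (bottom) lists with an adjusted p under 0.05 in the paired limma fit. All symbols lie right of 0; R7 is often the farthest right, and GPNMB and RRAGD have the largest means, 1.33 and 1.46.

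Upstream sequences of 5 of these risers are shown because they hold CACGTG, the core of the site that MiT/TFE factors bind. They were read from RefSeq promoters of GRCh38.p14, run 5′ to 3′ on the gene's strand upstream of its start, and capitals mark CACGTG. The regions are chr19:7522524-7522623 (plus strand) for MCOLN1, chr11:1763928-1764027 (minus) for CTSD, chr11:66568647-66568746 (minus) for CTSF, chr1:43974860-43974959 (plus) for ATP6V0B and chr1:38859823-38859922 (minus) for RRAGC.
MCOLN1: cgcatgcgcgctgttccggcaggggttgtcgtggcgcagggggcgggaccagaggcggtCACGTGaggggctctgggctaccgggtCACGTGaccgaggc
CTSD: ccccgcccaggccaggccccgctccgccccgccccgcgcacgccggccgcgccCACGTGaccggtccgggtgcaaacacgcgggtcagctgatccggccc
CTSF: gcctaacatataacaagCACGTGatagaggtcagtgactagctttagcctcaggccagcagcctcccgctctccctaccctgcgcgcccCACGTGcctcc
ATP6V0B: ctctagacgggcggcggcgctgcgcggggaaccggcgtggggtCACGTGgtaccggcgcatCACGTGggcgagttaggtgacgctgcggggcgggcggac
RRAGC: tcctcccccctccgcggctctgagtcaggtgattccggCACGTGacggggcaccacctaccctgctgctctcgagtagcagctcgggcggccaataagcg

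MCOLN1, CTSF and ATP6V0B each hold CACGTG at 2 places, at -41 and -14, -123 and -51, and -57 and -39 from the start, and CTSD and RRAGC at 1 place, -47 and -112. CACGTG, which is its own reverse complement, stood within 250 bases upstream in 12 of 40 lysosomal genes with a promoter (30.0%), 4 of 14 vacuolar ATPase genes (28.6%) and 7 of 45 autophagy genes (15.6%). All measured genes with a promoter held it in 9.8%. Among all genes that rose in 5 sublines 63 of 549 held it (11.5%), and among those that fell 18 of 172 did (10.5%). Of the lysosomal genes higher in all 5 sublines 7 of 19 held it (36.8%). A match is a description of the sequence only.

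Brightness and single sublines moved with these 3 lists, and their part in the counts was not tested. Of 53 lysosomal genes 38 lay in the brightest 2 of the 5 signal classes, as did 16 of 21 vacuolar ATPase and 35 of 50 autophagy genes, where 17.9% and 20.1% of all genes were higher in all 5 sublines. After quantile normalization 18 lysosomal genes were higher in all 5 and 5 lower, after median centring 18 and 2, and after olfactory receptor centring 33 and 0. Per subline, the lysosomal list median was 0.12, 0.26, 0.08, 0.28 and 0.38 for R1, R3, R5, R6 and R7. Without R7 the fit called 2 lysosomal genes higher and 1 lower, 0 vacuolar ATPase genes and 2 autophagy genes. Without R5 it called 3, 0 and 2 higher, without R6 4, 1 and 1, without R1 9, 2 and 8, and without R3 9, 2 and 7.

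Mitochondrial genes moved both ways. Of 69 measured subunits and assembly factors of oxidative phosphorylation, 25 were higher in all 5 sublines (36.2%, against 11.8% of all genes) and 2 lower. In the fit 6 rose (8.7%, against 3.61% of all genes): NDUFS3 of complex I by 0.46 (SE 0.07, adjusted p = 0.0153), ATP5MG of the ATP synthase by 0.43, NDUFAB1 by 0.41, UQCRC2 of complex III by 0.36, COX6A1 of complex IV by 0.36 and SDHA of complex II by 0.32 (adjusted p up to 0.0429). Of the 69 genes 64 lay in the brightest 2 signal classes. Median centring left 16 higher in all 5 and 4 lower, and the call count went to 1 without R7 and 0 without R5 or R6. Against these small rises stood 2 inner-membrane carriers with large falls. SLC25A11, which exchanges 2-oxoglutarate for malate, read 9.66, 9.02, 9.54, 9.38 and 9.71 in selected and 10.74, 10.74, 10.77, 10.20 and 10.39 in stable arrays of R1, R3, R5, R6 and R7. UCP2, which moves C4 metabolites out of mitochondria, read 9.82, 9.63, 9.50, 9.46 and 9.80 against 11.07, 11.49, 11.25, 10.08 and 10.37. Neither overlapped. SLC25A11 fell by 1.10 (SE 0.14, adjusted p = 0.0089) and UCP2 fell by 1.21 (SE 0.19, adjusted p = 0.0173), both in all 5 sublines, under all 3 rescalings and without any 1 subline. Of the 42 measured carriers 4 others rose by at most 0.48, SLC25A46, SLC25A4, SLC25A44 and SLC25A30. Rises made up 9.5% of the carriers and falls 4.8%, against 3.61% and 1.31% of all genes.

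Fewer genes fell than rose as deposited. CRYAB, a small heat shock protein, lay at 9.06, 8.50, 9.09, 9.43 and 9.86 in selected and 11.23, 10.51, 10.89, 10.64 and 10.61 in stable arrays. Parental arrays, at 9.51 to 10.03, lay below every stable array, and selected R7 lay within their range. CRYAB fell by 1.59 (SE 0.19, adjusted p = 0.0089), a 3.01-fold difference, and was the only member to pass among 22 heat shock genes, whose median was -0.01. ITGB3, the beta 3 integrin, fell by 1.13 (SE 0.14, adjusted p = 0.0089), and its highest selected value, 9.82, lay below its lowest stable value, 9.90. ITGA5, the fibronectin receptor subunit, rose by 0.47 (SE 0.10, adjusted p = 0.0373), so the 2 integrins that passed, of 21 integrin and CD44 genes, moved in opposite directions. ITGB3 kept its call when any 1 subline was left out. ITGA5 lost its call without R1, R3, R5 or R7 (adjusted p up to 0.113) and without the block (adjusted p = 0.0782).

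CFAP44, a component of cilia and flagella, had the smallest adjusted p of all the genes tested. It lay at 7.17, 7.92, 8.30, 7.72 and 8.01 in selected and 8.62, 8.91, 9.32, 9.02 and 9.11 in stable arrays. It fell by 1.17 (SE 0.09, adjusted p = 0.00509), with pair differences from -1.45 to -0.98. EBF3, a transcription factor gene, fell by 1.09 (SE 0.10, adjusted p = 0.00532), ORMDL2, a regulator of sphingolipid synthesis, by 1.07 (SE 0.15, adjusted p = 0.0114), TMEM141, a small membrane protein gene, by 1.04 (SE 0.18, adjusted p = 0.0217) and GABPB2, a subunit of the ETS factor GABP, by 0.91 (SE 0.08, adjusted p = 0.00532). In EBF3 and GABPB2 no pair differed by less than 0.72. TMEM141 differed by -1.66 in R3 but -0.38 in R6, and its call was lost without R5 or R7 (adjusted p up to 0.0647). CLDN1, a tight junction claudin, fell by 0.96 (SE 0.20, adjusted p = 0.0347) with almost no difference in R1, at -0.08. It was lower in all 5 pairs as deposited but not under every rescaling, and lost its call without R5, R6 or R7 (adjusted p up to 0.101).

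**Figure D4:**
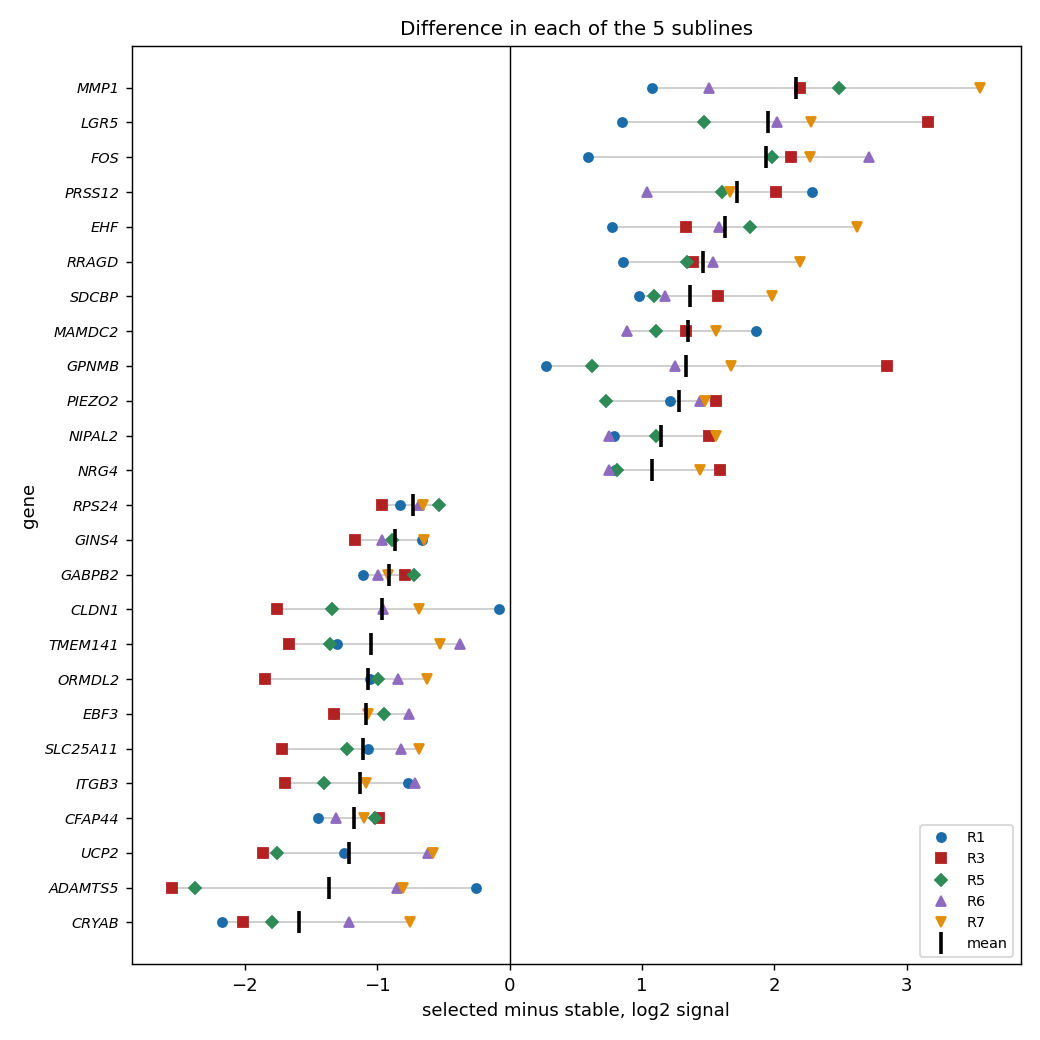
Selected minus stable difference (log2 signal) in each subline (symbols), their range (grey line) and mean (bar) for the genes with the largest differences among those that passed the paired limma fit with the same sign in all 5 pairs, and for genes with the largest least pair difference; small RNAs, among them 2 with larger falls than CRYAB, are not plotted. Of the genes plotted, MMP1 has the largest mean, 2.16, and CRYAB the lowest, -1.59.

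Cytosolic ribosomal protein genes were more often lower than higher as deposited. Of 58 measured, 20 were lower in all 5 sublines (34.5%, against 7.35% of all genes) and 4 higher, with a median of -0.10. In the fit 4 fell (6.9%, against 1.31% of all genes) and 1 rose (1.7%, against 3.61%). RPS24 fell by 0.73 (SE 0.08, adjusted p = 0.00781), from 10.23 to 10.62 without inhibitor to 9.53 to 9.97 with it. RPS27 fell by 0.47 (adjusted p = 0.0251), RPL7A by 0.42 (adjusted p = 0.0233) and RPL13 by 0.59 (adjusted p = 0.0105), while RPS23 rose by 0.39 (adjusted p = 0.0476). RPS23 lost its call when any 1 subline was left out, RPS27 without R1, R5, R6 or R7 and RPL7A without R5, R6 or R7. After olfactory receptor centring RPS27 and RPL7A did not pass the fit (adjusted p = 0.0742 and 0.107). RPS24 and RPL13 kept their calls when any 1 subline was left out. The direction of the list depended on scale: 25 were lower and 4 higher after quantile normalization, 22 and 1 after median centring, and 3 and 14 after olfactory receptor centring. RPL13 also depended on the row kept, with a mean over its rows of -0.13 (adjusted p = 0.375). Ribosomal protein genes have many processed pseudogenes, so signal from near-identical copies cannot be separated here.

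Among the cell cycle genes around the drug's target, CDK2 and CCNE1 did not pass the fit, and CCNE2 and CDKN1A rose. CDK2 read 10.31, 9.84, 10.25, 9.95 and 10.28 in selected and 10.22, 10.17, 10.10, 9.92 and 9.95 in stable arrays, a difference of 0.05 (SE 0.10, adjusted p = 0.823). CCNE1 read 11.61, 11.07, 11.22, 11.61 and 11.43 against 11.16, 11.15, 10.70, 11.11 and 10.89. It was higher by 0.45 to 0.54 in R1, R5, R6 and R7 and by -0.08 in R3, so it lies outside the rule and did not pass (0.39, SE 0.10, adjusted p = 0.064). CCNE2, the second E-type cyclin, rose by 0.76 (SE 0.16, adjusted p = 0.0378), at 1.20 in R5 and 1.32 in R7 but 0.11 in R3. CDKN1A, which encodes the CDK inhibitor p21, rose by 0.64 (SE 0.13, adjusted p = 0.0321), led by R1 at 1.23. Each of these 2 calls was lost when any of 4 sublines was left out, with adjusted p up to 0.122 for CCNE2 and 0.0885 for CDKN1A. They were the only calls among 24 genes of CDK2, its cyclins and inhibitors, a share of 8.3% against 3.61% of all genes, and 3 of the 24 were higher in all 5 sublines (12.5%, against 11.8%).

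Of 21 genes of the D cyclin, CDK4, CDK6 and RB group, 6 were higher in all 5 sublines (28.6%, against 11.8% of all genes), 1 was lower and 3 rose (14.3%, against 3.61%): E2F7, a repressor of E2F targets, by 0.45 (adjusted p = 0.0283), CCND3 by 0.36 (adjusted p = 0.0458) and E2F1 by 0.33 (adjusted p = 0.046). CCND3 and E2F1 lost their calls when any 1 subline was left out. Without R1, R5 or R7 the list had 0 calls. Of 54 replication genes, 8 were higher (14.8%) and 3 lower (5.6%) in all 5 sublines, and 2 passed in each direction (3.7% each). Over all genes the shares were 11.8% and 7.35% by sign, and 3.61% and 1.31% in the fit. The helicase subunit MCM2 rose by 0.33 (adjusted p = 0.0392) and DTL, a substrate receptor for CDT1 destruction, by 0.37 (adjusted p = 0.0373), whereas the GINS subunit GINS4 fell by 0.86 (SE 0.09, adjusted p = 0.00704) and the origin recognition subunit ORC3 by 0.84 (SE 0.15, adjusted p = 0.022). GINS4 lay at 8.66, 7.84, 8.53, 7.75 and 8.36 in selected and 9.32, 9.01, 9.42, 8.71 and 9.0 in stable arrays, without overlap. MCM2 lost its call when any 1 subline was left out, DTL without R1, R5, R6 or R7 and ORC3 without R6 or R7. GINS4 kept its call in each of these fits. Among 49 mitotic genes AURKB, the kinase of the chromosomal passenger complex, fell by 0.50 (adjusted p = 0.0214) and NEK2, a centrosomal kinase, rose by 0.44 (adjusted p = 0.0495). Each is 2.0% of the list, against 1.31% of all genes that fell and 3.61% that rose. By sign, 3 mitotic genes were higher (6.1%, against 11.8%) and 1 lower (2.0%, against 7.35%) in all 5 sublines. AURKB lost its call without R5 or R6, and NEK2 without R1, R5, R6 or R7. The proliferation marker MKI67 differed by 0.02 (SE 0.09, adjusted p = 0.942), with R3 at -0.27 and the other pairs between -0.09 and 0.20.

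Genes of xenobiotic and antioxidant metabolism rose in 6 of 37 cases (16.2%, against 3.61% of all genes) and fell in 2 (5.4%, against 1.31%). In all 5 sublines 8 were higher (21.6%, against 11.8%) and 4 lower (10.8%, against 7.35%). EPHX1, microsomal epoxide hydrolase, rose by 0.62 (SE 0.08, adjusted p = 0.0102; 0.0671 without the block) and did not overlap, AKR1C2 and AKR1C3, aldo-keto reductases with near-identical sequence, by 0.64 and 0.50, CYP1B1 by 0.51, NQO1 by 0.39 and ALDH3A2 by 0.39. The glutathione transferases GSTM3 and GSTA1, also members of close families, fell by 0.57 and 0.39 (adjusted p from 0.0198 to 0.0404 for these 7). GSTA1 lost its call when any 1 subline was left out, and AKR1C2, NQO1 and ALDH3A2 when any of 4 was. Without the block CYP1B1, NQO1, GSTM3 and GSTA1 did not pass (adjusted p from 0.14 to 0.366). The fit called 1 list member higher and 0 lower without R5, and 1 and 1 without R7. None of 13 ABC efflux transporters passed, and ABCB1, the multidrug transporter, differed by -0.05 (SE 0.08, adjusted p = 0.788), with selected arrays averaging 6.31 ± 0.13 (SD, n = 5) at the dim end of the scale. MCL1 and BAK1, an inhibitor and an effector of apoptosis, rose by 0.40 and 0.44, and BNIP3 by 0.37 (adjusted p from 0.0332 to 0.0395). They were the 3 calls among 18 BCL2 family genes (16.7%, against 3.61% of all genes). By sign, 4 were higher (22.2%, against 11.8%) and 1 lower in all 5 sublines. That list had 0 calls without R5, R6 or R7, without the block and after median centring. Single rises on other lists were those of SC5D of sterol synthesis, by 0.57 (adjusted p = 0.018), and DNAJC3, an ER chaperone of the unfolded protein response, by 0.80 (adjusted p = 0.0198). Interferon response genes had 0 of 39 members called and 0 higher in all 5 sublines, and their median was -0.32 in R3 but between -0.10 and 0.12 in the other 4.

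**Figure D5:**
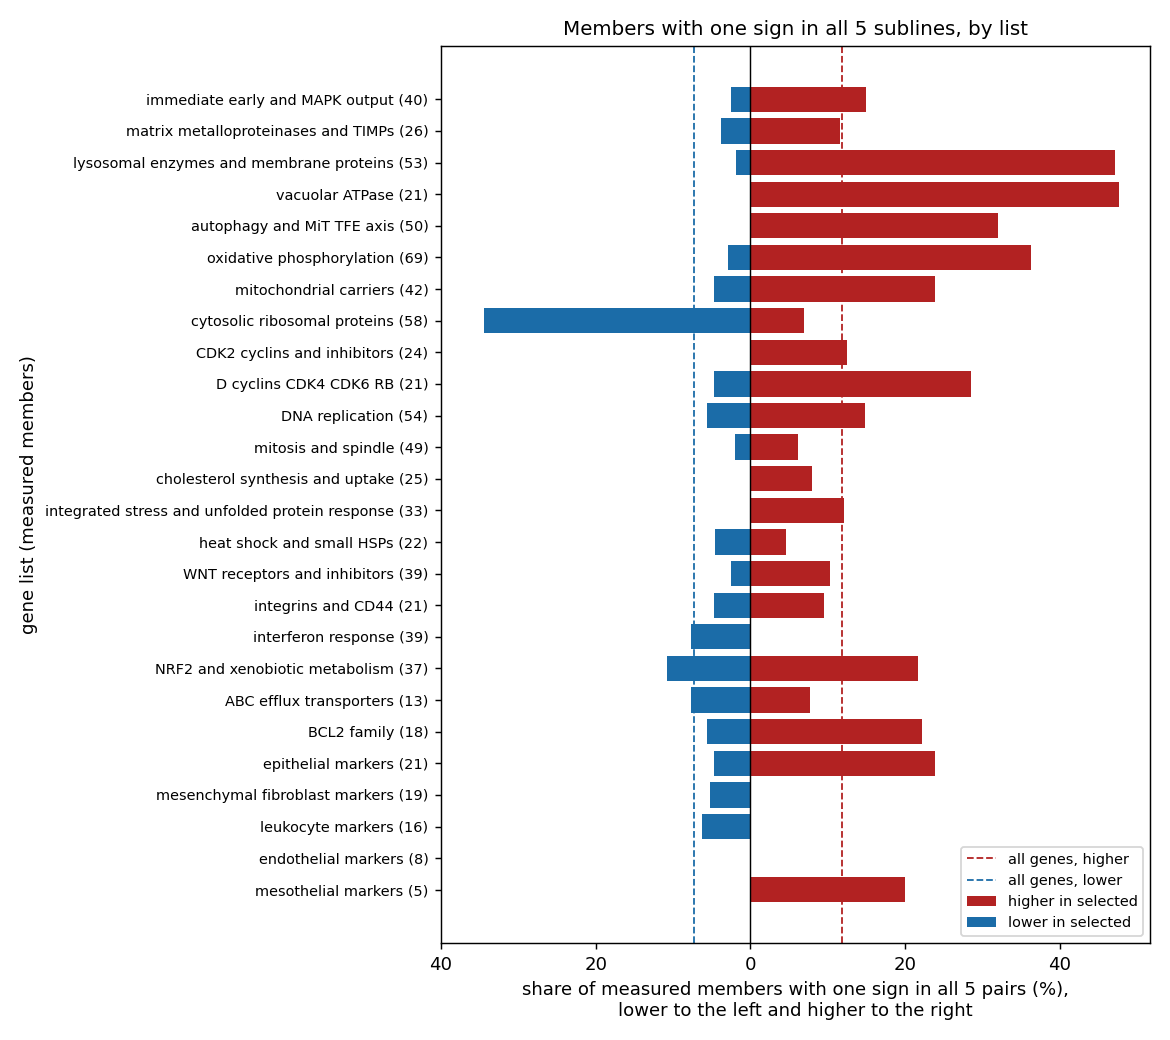
Share of the measured members of 26 gene lists (number in brackets) that were higher (red, right) or lower (blue, left) in selected than in stable cells in all 5 sublines, in percent; dashed lines give the shares over all 18398 genes, 11.8% and 7.35%. Lysosomal and vacuolar ATPase lists reach 47.2% and 47.6% higher, and the ribosomal list 34.5% lower.

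Markers of other cell types gave no calls. Leukocyte (16 measured), endothelial (8) and mesothelial (5) lists had 0 genes called, and their mean signal over selected arrays ranged from 6.78 to 6.95, 6.85 to 6.96 and 8.54 to 8.70, against 6.74 to 7.02, 6.83 to 7.05 and 8.17 to 8.61 over stable arrays. Epithelial markers, which averaged 10.66 to 11.07 over selected arrays and 10.46 to 11.05 over stable ones, included rises of the adhesion protein CDH1 by 0.59 (SE 0.13, adjusted p = 0.0384) and of ELF3 by 0.85 (SE 0.19, adjusted p = 0.0396), the latter in 4 of 5 pairs with R3 at -0.11. CDH2, N-cadherin, was the single mesenchymal marker of 19 to pass, falling by 0.44 (SE 0.07, adjusted p = 0.0184), with pair differences from -0.56 to -0.29. CDH1 and CDH2 overlapped between conditions. Both lost their calls without R5, R6 or R7, with adjusted p up to 0.116 for CDH1 and 0.0683 for CDH2, and CDH1 also without R3. KRT5, a basal keratin, was higher in all 5 pairs by 0.05 to 1.78 and just missed the threshold (0.99, SE 0.24, adjusted p = 0.0515).

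The sublines shared part of the response and differed in the rest. Across genes, the 5 sets of pair differences correlated with r between 0.20 (R3 and R7) and 0.58 (R6 and R7), values over 18398 genes of the same arrays that are given as a description. Signs chosen in 4 sublines were then looked up in the one not used. Of genes higher in the other 4 pairs, 78.0%, 70.8%, 81.3%, 78.3% and 76.4% were also higher in R1, R3, R5, R6 and R7, beside 56.0%, 60.1%, 54.4%, 47.7% and 47.9% of all genes. Of genes lower in the other 4, 72.2%, 61.2%, 77.1%, 71.1% and 73.3% were also lower in R1, R3, R5, R6 and R7, beside 44.0%, 39.9%, 45.6%, 52.3% and 52.1% of all genes. These shares, on the deposited scale, are higher than those of all genes in every subline, but genes are not replicates and no test was made.

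R3 stood apart in some named genes, though not alone in all of the widest-ranging ones. In ACTBL2 the extreme pair differences were 2.07 in R1 and -1.34 in R3. GREM1, a BMP antagonist, was 11.57 in stable R3 against 7.19 to 8.38 in the other stable arrays and 7.24 to 7.71 in all selected arrays, a pair difference of -3.91 in R3 and -0.68 to 0.05 elsewhere. DPP4, a cell surface peptidase, was 10.80 in stable R3 and differed by -3.62 there, but by 1.31 in R7. Medians of the mitotic and DNA replication lists were -0.24 and -0.15 in R3, and 0.25 and 0.25 in R7. Neither GREM1 nor DPP4 passed the fit (adjusted p = 0.264 and 0.497).

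The rule of a common sign cuts through genes with almost equal values. Among the genes just inside it that passed were SCPEP1, a serine carboxypeptidase-like gene, and DRAM1, a lysosomal membrane protein gene, both with a smallest pair difference of 0.0036 and mean differences of 0.67 and 0.61. Just outside were C4orf33, SLC35A3 and SERTAD1, with means of 0.53, 0.50 and 0.59 and a single opposite pair of at most 0.0098. Of the 906 genes that passed, 19 had mixed signs. NDP and MGAT4A, genes of a secreted signalling protein and a glycosyltransferase, were the farthest outside, with means of 0.99 and 1.15 and an opposite pair difference of 0.22 and 0.27 in R1.

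Set against the parental arrays, the genes that separated the conditions were more often at parental level in stable than in selected cells. Of the 649 genes that rose in all 5 sublines, 389 (59.9%) had a stable mean within the range of the 4 parental arrays and a selected mean outside it, 47 (7.24%) the reverse, 11 both inside and 202 neither. Of the 238 that fell, 110 (46.2%) had only the stable mean inside, 18 (7.56%) only the selected mean, 38 both and 72 neither. Over all genes 21.8% had only the stable mean inside, 8.95% only the selected mean, 53.9% both and 15.3% neither. RRAGD (stable mean 7.78, selected 9.25, parental 7.72 to 8.04), FUCA1 (8.06, 8.81 and 7.91 to 8.16) and SDCBP (9.16, 10.52 and 8.96 to 9.44) were of the first kind. FOS, EGR1 and FOSB were not: their stable means of 8.38, 10.95 and 8.19 lay below all parental arrays, from 10.44, 12.14 and 9.06 upwards. Their selected means of 10.32, 11.92 and 8.70 lay nearer the parental arrays but were also below all of them. CRYAB lay outside on both sides, with selected arrays averaging 9.19 ± 0.50 and stable arrays 10.77 ± 0.29 (SD, n = 5). Genes chosen because selected and stable means differ seldom have both inside, so the shares above cannot be compared directly with those of all genes. The stable mean was the nearer to the parental mean in 84.1% of the genes that rose, 81.9% of those that fell and 62.8% of all genes. The counts are a description: the parental arrays are not said to come from separate cultures, and their range may be technical.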

How the data were processed

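Total RNA (mirVana kit) was labelled for Affymetrix whole-transcript arrays, per the labels' protocols. The authors deposited 1 table of log2 values; the base was read from its range, 4.34 to 14.9, and the normalization is not given in the sources used here. Of 32295 rows 19148 name 1 gene, and each of 18398 genes is represented by its brightest row on average; array medians ran from 7.54 to 7.68. The number of arrays limits the precision.

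Selected and stable arrays of one subline were compared with limma 3.58.1 in R 4.3.3 (subline as a block, eBayes, two-sided, Benjamini-Hochberg over all genes, threshold 0.05). Pairs share a subline, per the labels; the correlation of same-subline deviations was 0.64, 0.05, 0.37, 0.55 and -0.47 for R1, R3, R5, R6 and R7, and some arrays correlated more with another subline (selected R5 with stable R7 at 0.64). Tested on simulated data of 18398 genes, this fit recovered 6%, 68%, 90% and 100% of genes changed by 0.25, 0.5, 1 and 1.5, with 50 genes per size.

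Members and gene lists were chosen with earlier results of these data known. Named genes were FOS, EGR1, CCNE1 and CDK2, the 10 largest mean and 10 largest least pair differences in each direction among genes that passed with one sign, up to 5 genes per list by smallest p, and the 6 widest-ranging genes; symbols of small or unnamed RNAs, olfactory receptors and keratin-associated genes were skipped. Genes outside this rule (other list members that passed, those at the edge of the sign rule, and genes named as not called) were chosen after their values were seen. Alternatives changed the scaling, the block, the variance model, the arrays, the row and the filter. Promoters are RefSeq's (GRCh38.p14), searched over 250 bases upstream on both strands. 1 gene list is not reported here.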

Additional observations from a re-analysis of the deposited data

Results flagged for a closer look

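In 9 of 157 genes examined 1 subline stood so far from the other 4 that the gap passed Dixon's 95% critical value (0.71 for 5 values), which chance exceeds in about 1 of 20 groups. A count of 9 is therefore near what chance gives, and the values are listed as a description. The values are pair differences, selected minus stable, on the log2 scale. R7 was the high one in 5 of them. It differed by 1.46 in DNAJC3, an ER chaperone (0.48 to 0.75 elsewhere), by 0.63 in FOXM1, a mitotic transcription factor (0.15 to 0.28), and by 0.55 in MCM2, a replicative helicase subunit (0.26 to 0.29). It differed by 0.79 in MVK, mevalonate kinase (0.12 to 0.30), and by 0.62 in SPINT1, a serine protease inhibitor (0.14 to 0.25).

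R3 was the odd one in the other 4. It differed by -0.084 in CCNE1, cyclin E1, against 0.45 to 0.54 in the other pairs. It differed by -0.25 in the interferon-induced IFIT3, against 0.38 to 0.57. In GREM1, a BMP antagonist, it differed by -3.91, against -0.68 to 0.05. In WFDC2, which encodes the ovarian tumour marker HE4, it differed by 1.74, against 0.13 to 0.59. With 1 array per subline and condition, a subline and an array cannot be told apart here.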

How the results depend on the processing

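The comparison of 906 genes called rests on the model and on all 5 sublines. With no replicate block, that is without the pairing, 397 genes passed, 379 of them among the 906. Using all 14 arrays with subline as a random block gave 1367, array weights 1416, median centring 441, olfactory receptor centring 1552 and a required difference of at least 1 gave 37. Under quantile normalization 789 passed (426 higher and 363 lower). Leaving out 1 subline gave 159 to 688 genes, the lowest without R7. When limma also fitted each array's olfactory receptor mean, it called 0 genes, against 1309 at an unadjusted p under 0.05. Genes with one sign in all pairs numbered 6069 after olfactory receptor centring, and 4421 to 5272 over 4 pairs, a weaker condition. The share of held-out signs, averaged over sublines, was 77.0% higher and 71.0% lower, and 83.7% and 62.2% after olfactory receptor centring, an alternative chosen after seeing the data, as were the rescalings of the olfactory receptor mean and the list counts. Among the 92 named genes that passed, no difference changed sign under the alternatives run. Counts did turn: genes with one sign numbered 2168 higher and 1353 lower as deposited, but 1794 and 1903 after quantile normalization and 1583 and 2192 after median centring. Ribosomal protein genes went from 4 higher and 20 lower to 14 and 3 after olfactory receptor centring. Of 105 named or listed genes that passed, 27 kept the call with any 1 subline left out. Dim genes near the bottom of the scale are limited by background, which moved with the comparison.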

Other observations

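A family of small nucleolar RNAs outside the lists was lower in inhibitor, and was chosen after its values were seen. SNORD116 RNAs are C/D box small nucleolar RNAs made from a cluster of repeated, near-identical copies, so values of single copies are uncertain. Of 20 measured, 10 were lower in all 5 sublines and 0 were higher, against 7.35% and 11.8% of all genes, and 4 passed the paired limma fit. SNORD116-14 lay at 7.28, 7.02, 7.96, 8.35 and 8.51 in selected arrays of R1, R3, R5, R6 and R7 and at 10.28, 10.05, 8.54, 9.84 and 9.43 in stable arrays, with parental arrays at 9.80 to 10.34. It fell by 1.80 (adjusted p = 0.0301), SNORD116-24 by 1.79 (adjusted p = 0.0259), SNORD116-15 by 1.55 (adjusted p = 0.0227) and SNORD116-20 by 1.38 (adjusted p = 0.0338). In these 4 the differences were largest in R1 and R3, from -3.03 to -2.34, and smaller in R5, R6 and R7. SNORD116-14, SNORD116-24, SNORD116-15 and SNORD116-20 all lost their calls without R7 (adjusted p = 0.0729, 0.0563, 0.074 and 0.0816). SNORD116-14 and SNORD116-24 also lost them without R6 (adjusted p = 0.076 and 0.058). SNORD116-20 lost its call without any 1 of the 5 sublines (adjusted p = 0.051 to 0.0816) and under median centring (adjusted p = 0.0554). No call was left in any of them with the olfactory receptor covariate, where 0 genes passed. SNORD115, a second such family, had 5 of 20 lower and 0 higher in all 5 sublines and 0 calls in the limma fit. The SNORD genes outside SNORD116 numbered 95, SNORD115 included, with 7 lower, 11 higher and 2 called.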
